A study of Sus scrofa with 20 samples.

Results

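The solute carrier families SLC1, SLC3, SLC6, SLC7, SLC36, SLC38 and SLC43 hold most of the membrane proteins that carry amino acids into, out of and between the compartments of a cell. Their transcripts were followed here in the mucosa of the pig ileum, in low RFI pigs set against high RFI pigs and across litters. A gene was a member when the platform annotation of the array gave it a symbol of 1 of these families followed by digits only. Membership within the families thus used names alone, but the families themselves were chosen with earlier results of these data known. Of 10638 genes with a symbol and values on the arrays, 32 were members, with 47 of the 25092 filled probesets. After the filter on low means and wide spreads 30 member genes with 42 probesets were tested, out of 9800 genes and 22136 probesets. A further 16 member genes had only rows without values, among them the uptake genes SLC7A9, SLC6A20, SLC6A6, SLC36A1, SLC38A2, SLC43A2 and SLC7A5, and these were not analysed here.

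Residual feed intake (RFI) is the difference between the feed an animal eats and the feed its weight, growth and body composition predict, so a low RFI pig is a feed-efficient pig. In all, 10 low RFI and 10 high RFI pigs of a Large White x Landrace cross, labelled as of high and of low feed efficiency, were measured on 1 array each. They were penned as whole litters with free access to feed, and were the most divergent animals of their litter and sex. At slaughter, at about 19 weeks of age, mucosa was scraped off about 15 cm ahead of the ileo-caecal junction. Litters of 5 sows were sampled, with 4 pigs from each, namely a low and a high RFI pig labelled female and the same labelled male, which made 10 pairs of the same litter and sex. Pigs are named by sow and sex or by their number within the RFI group. Pigs of 1 sow shared the litter and the pen, which cannot be told apart here, and the slaughter batch is not in the labels.

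Free amino acids enter the enterocyte at its brush border, on carriers that are mostly driven by sodium or protons or work as exchangers. They leave for the blood across the basolateral membrane, on exchangers of the SLC7 family that need the SLC3A2 heavy chain as a partner and on uniporters of the SLC43 family. Other members feed dividing cells, sit on the lysosome where they take part in nutrient sensing, or clear glutamate, glycine and monoamines at synapses.

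The deposited values are log2 expression values, so a difference of 1 is a doubling, every fold change here is on this scale, and values of different probesets are not comparable with each other. Array medians lay between 4.98 and 5.07, and arrays correlated at 0.948 to 0.974 with each other over all filled probesets. Of the enterocyte markers, 8 of 11 had values, with means over the pigs between 1.90 for FABP1 and 13.23 for FABP6, the ileal bile acid binding protein. The arrays read whole scrapings, so fewer cells of a type and less RNA per cell cannot be told apart.

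In low RFI pigs, 3 member genes were lower at an unadjusted p under 0.05, the threshold of the study, and none was higher. They were SLC1A7, a glutamate transporter best known from the retina, SLC38A1, a sodium-coupled importer of glutamine and other small neutral amino acids, and SLC6A14, a sodium- and chloride-driven importer of neutral and cationic amino acids. The other 27 tested member genes, including every tested carrier of the classical brush-border and basolateral routes apart from SLC6A14, did not pass. Lower calls made up 10% of the tested member genes, 3 of 30, where 2.61% of all tested genes were called lower, 1.24% higher and 3.86% in either direction. After Benjamini-Hochberg adjustment over all 22136 probesets, limma called 0 probesets, against 893 at an unadjusted p under 0.05, and the adjusted p of every member was 0.9998. The families were looked at because earlier results of these data had named SLC38A1 and SLC6A14, so the count of 3 is no independent evidence.

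**Figure D1:**
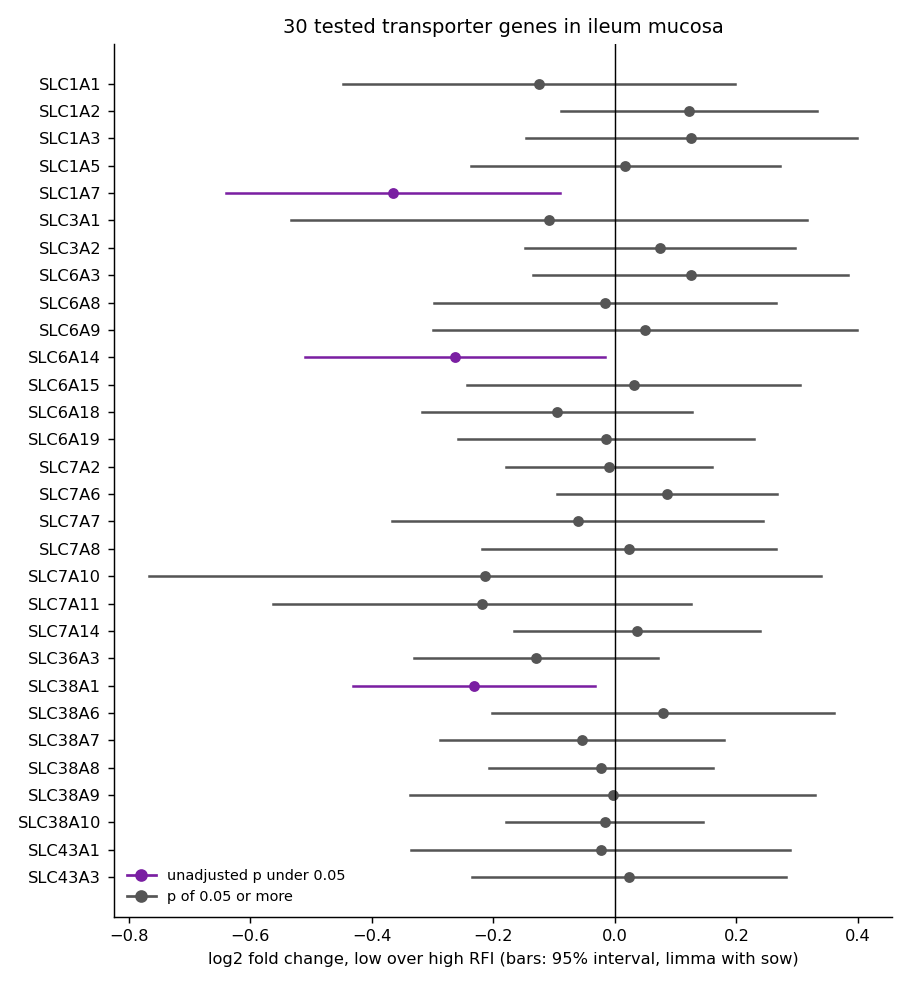
Log2 fold change of low over high RFI pigs (horizontal axis) for the 30 tested member genes, 1 row per gene at its highest-mean probeset, with 95% intervals from limma with the sow as a term (n = 10 pigs per group). SLC1A7, SLC6A14 and SLC38A1, in purple, lie below 0 with intervals that end before it, and the other 27 intervals cross 0.

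SLC1A7 lies on chromosome 6 of Sscrofa11.1, 159106083 to 159153766. Its log2 value was lowest at 3.69, 4.36 at the median and 4.95 at the highest in low RFI pigs, against 4.19, 4.71 and 5.003 in high RFI pigs. The groups overlapped: low RFI pigs spread over more than 1 log2 unit, while 9 of 10 high RFI pigs lay at 4.50 or above. The means were 4.34 ± 0.37 in low RFI and 4.71 ± 0.24 in high RFI pigs (SD, n = 10 each). The log2 fold change was -0.37 with a standard error of 0.13 and a 95% interval of -0.64 to -0.09 (limma, unadjusted p = 0.0119, adjusted p = 0.9998). The low RFI pig was the lower one in 8 of 10 pairs, and an exact two-sided permutation test over the 1024 swaps within pairs gave p = 0.0449, where the smallest possible is 0.00195. The difference between low and high RFI was largest in the litters of sows 1406, at -0.75, and 1410, at -0.59, and was 0.06 in the litter of sow 1411. Without the litter of sow 1406 the fold change was -0.27 and the call was lost (p = 0.0797). It held without any single pig (p from 0.0026 to 0.0283). SLC1A7 has only 1 probeset with values, so the call could not be compared with a second one. Its mean over all pigs, 4.52, lay below the lowest array median, 4.98.

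SLC38A1, also known as SNAT1, lies on chromosome 5 from 77009840 to 77076723. At its highest-mean probeset the log2 value ran from 5.03 through a median of 5.31 to 5.71 in low RFI pigs, against 5.14, 5.63 and 5.91 in high RFI pigs. The groups overlapped between 5.14 and 5.71. Means were 5.35 ± 0.21 in low RFI and 5.58 ± 0.23 in high RFI pigs, a log2 fold change of -0.23 (standard error 0.09, 95% interval -0.43 to -0.03, limma unadjusted p = 0.0245). The value was lower in the low RFI pig of 7 of 10 pairs (exact permutation p = 0.0215), and the litter means of the difference were negative in all 5 litters, between -0.43 in that of sow 1417 and -0.08 in that of sow 1411. The gene has a further 2 tested probesets, and neither showed this difference: their fold changes were -0.01 (p = 0.905) and 0.00 (p = 0.984). With the mean of the 3 probesets the fold change was -0.08 (p = 0.326). Over the 20 pigs the 3 probesets did not follow each other, with Pearson's r of -0.09, 0.09 and 0.08. The call was also lost without low RFI replicate 5 (p = 0.0562), replicate 6 (p = 0.0532) or replicate 7 (p = 0.0556), and without the litter of sow 1410 (p = 0.0787) or 1417 (p = 0.112).

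SLC6A14, also known as ATB0,+, lies on chromosome X from 95482494 to 95507200. Its log2 value had a lowest, median and highest of 2.14, 2.40 and 2.999 in low RFI pigs, against 2.37, 2.71 and 3.39 in high RFI pigs. The highest values were those of 2 high RFI pigs, the female of sow 1410 at 3.39 and the male of sow 1406 at 3.18, and the rest of the groups overlapped. Means were 2.50 ± 0.28 in low RFI and 2.76 ± 0.32 in high RFI pigs, and the log2 fold change was -0.26 (standard error 0.12, 95% interval -0.51 to -0.02, limma unadjusted p = 0.0379). The low RFI pig was the lower one in 8 of 10 pairs (exact permutation p = 0.0254). The mean over all pigs was low, at 2.63, where array medians lay between 4.98 and 5.07 and the filter left out means below 1.75. The second probeset, with a mean of 1.90, had a fold change of -0.15 (limma p = 0.204). This was the least stable of the 3 calls: it was lost without low RFI replicate 2, 3, 5, 6, 8 or 9 or high RFI replicate 1, 3, 5 or 9 (p from 0.0551 to 0.0880), without the litter of sow 1406 (p = 0.141), 1410 (p = 0.0609), 1411 (p = 0.0750) or 1435 (p = 0.0671), without the sow in the fit (p = 0.0583), with the sow as a random block (p = 0.0506) and after renewed quantile normalization (p = 0.0539).

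**Figure D2:**
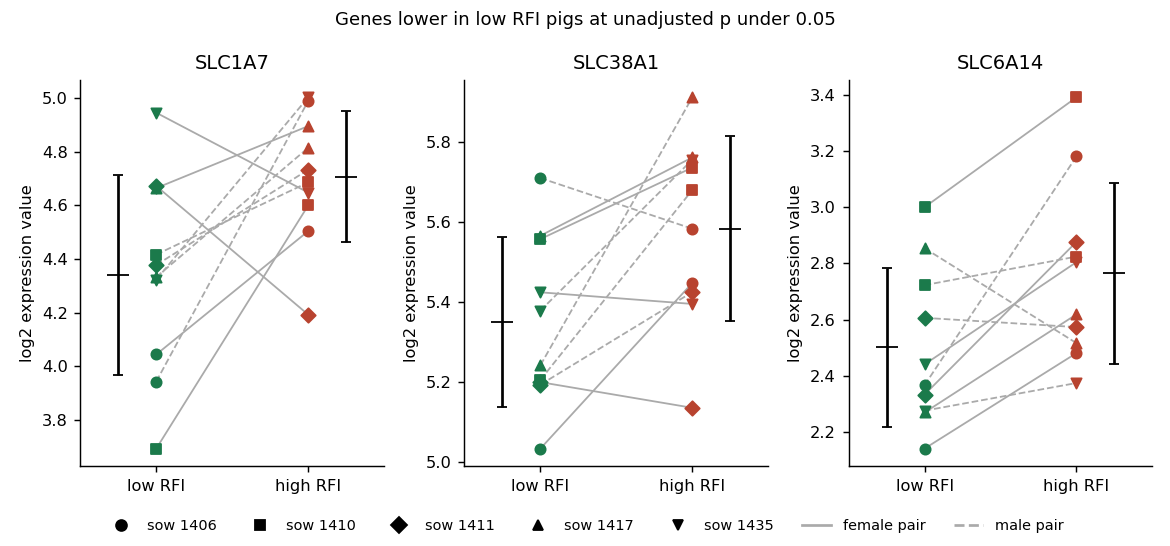
Log2 value of SLC1A7, SLC38A1 and SLC6A14 (vertical axes) in each of the 20 pigs, low RFI to the left of high RFI in each panel, with a line joining the pigs of 1 litter and sex and the mean with its SD beside each group (n = 10). The low RFI pig is the lower one in 8, 7 and 8 of the 10 pairs, and in every panel the groups overlap.

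The brush-border carriers, which take amino acids out of the lumen, were represented by 5 tested genes of 8 listed, with a median log2 fold change of -0.11 and 1 call, SLC6A14. SLC1A1, the EAAT3 carrier of glutamate, aspartate and cystine, ran from 11.29 to 12.62 with a median of 12.05 in low RFI pigs, against 11.47 to 12.73 with a median of 12.24 in high RFI pigs. Its fold change was -0.12 (95% interval -0.45 to 0.20, p = 0.428), and its groups lay over almost the same span. SLC6A19, the B0AT1 sodium-driven importer of neutral amino acids, was close to equal at 10.91 ± 0.27 in low RFI and 10.93 ± 0.23 in high RFI pigs (95% interval of the difference -0.26 to 0.23, p = 0.906). SLC1A5, the ASCT2 exchanger of glutamine, serine and alanine, had a fold change of 0.02 (95% interval -0.24 to 0.27, p = 0.888). SLC3A1, the rBAT heavy chain of the cystine and cationic amino acid exchanger, was more variable, between 8.31 and 10.22 in low RFI and 8.79 and 9.94 in high RFI pigs, and its interval was correspondingly wide (fold change -0.11, -0.53 to 0.32, p = 0.5996). Its light chain SLC7A9 had no values.

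The basolateral exit route had 4 tested genes of 5 listed, a median fold change of 0.05 and no call. SLC3A2, the 4F2hc heavy chain that brings several SLC7 light chains to the membrane, averaged 8.60 ± 0.14 in low RFI and 8.53 ± 0.25 in high RFI pigs, a fold change of 0.07 (p = 0.491). Its other 2 probesets gave -0.01 and -0.16, so no direction can be given for this gene. SLC7A7, the y+LAT1 light chain that exports lysine and arginine in exchange for neutral amino acids and sodium, gave -0.06 (95% interval -0.37 to 0.24, p = 0.680). Without the litter of sow 1417 it was -0.27 (p = 0.0443), and in that litter the low RFI pigs were the higher ones. SLC7A6, the related y+LAT2 chain, gave 0.09 (p = 0.332), and SLC7A8, the LAT2 exchanger of neutral amino acids, gave 0.02 (95% interval -0.22 to 0.26, p = 0.845).

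Carriers linked to growth and exchange had 5 tested genes of 13 listed, with SLC38A1 as the call and a median fold change of -0.21. SLC7A11, the xCT light chain that imports cystine in exchange for glutamate, ran from 2.63 to 3.68 in low RFI and 2.72 to 4.12 in high RFI pigs (fold change -0.22, standard error 0.16, p = 0.199). It passed only when high RFI replicate 4 (-0.32, p = 0.0433) or the litter of sow 1411 (-0.35, p = 0.0464) was left out. The other probesets of SLC7A11 were left out for a low mean, and correlated with this one at r = 0.09 and -0.13. SLC7A10, the Asc-1 exchanger of small neutral amino acids, had the widest spread of the tested member genes, 3.03 to 4.61 in low RFI and 2.71 to 4.72 in high RFI pigs, with a fold change of -0.21 (standard error 0.26, p = 0.429). SLC7A2, the CAT2 carrier of cationic amino acids, gave -0.01 (p = 0.906), and SLC43A1, the LAT3 uniporter of branched-chain amino acids, -0.02 (p = 0.876).

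The lysosomal, vesicular and orphan carriers had 7 tested genes of 13 listed and no call, with a median fold change of -0.02. The narrowest interval of all members was that of SLC38A10, a member of uncertain function, with a fold change of -0.02 (standard error 0.08, 95% interval -0.18 to 0.15). SLC38A9, the lysosomal arginine sensor of the mTORC1 pathway, gave 0.00 (95% interval -0.34 to 0.33, p = 0.983). Of the glutamate carriers known mainly from brain or retina, SLC1A7 was called, while SLC1A2, the main glial carrier, gave 0.12 (p = 0.239) and SLC1A3 0.13 (p = 0.346). The second probeset of SLC1A3 gave -0.08 (limma p = 0.296) and correlated with the first at r = -0.21, so no direction can be given for it. The neurotransmitter carriers SLC6A3 for dopamine and SLC6A9 for glycine gave 0.12 (p = 0.328) and 0.05 (p = 0.767). The creatine carrier SLC6A8 gave -0.02 (p = 0.904).

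Over the 30 tested member genes 12 fold changes were positive and 18 negative, with a median of -0.02 and a range of -0.37 to 0.13, beside a median of -0.01 and 52.5% negative values over all tested genes. The standard errors of the members ran from 0.08 to 0.26 with a median of 0.12, close to the median of 0.11 over all tested genes. For 25 of the 30 members the 95% interval lay within 0.5 log2 units on either side of 0. In none of the 30 tested members were the RFI groups free of overlap. The share of all tested genes free of overlap was not counted, so this is not particular to the members. RFI accounted for a median of 1.41% of a member's variance and 2.12% over all tested genes, and reached 27.1% in SLC1A7, 23.3% in SLC38A1 and 17.3% in SLC6A14.

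**Figure D3:**
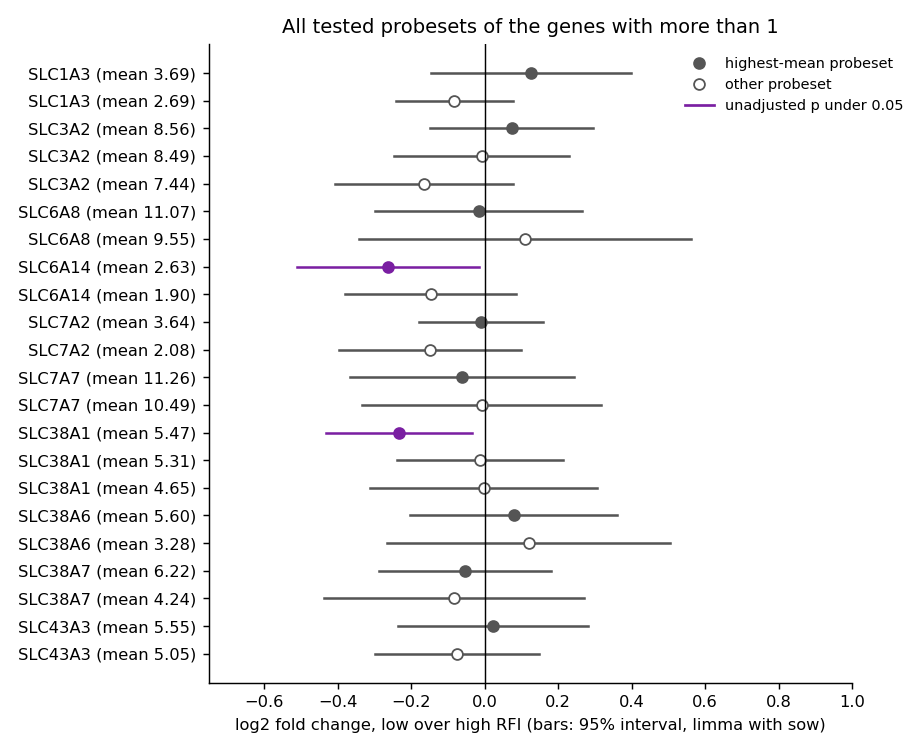
Log2 fold change of low over high RFI pigs (horizontal axis) with 95% intervals for every tested probeset of the 10 member genes with more than 1, filled for the highest-mean probeset and open for the others, each named with its mean log2 value. Only 1 of 3 probesets of SLC38A1 and 1 of 2 of SLC6A14 pass the unadjusted threshold. The probesets of SLC3A2, SLC1A3, SLC6A8 and SLC43A3 lie on either side of 0.

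How far probesets of 1 gene can be read as the same signal differed between members. Of 18 probeset pairs in 12 member genes, 14 had a positive r across the 20 pigs, and 4 passed a permutation test with adjustment over the pairs. SLC7A7 had r = 0.97 (Spearman's rho 0.96) and SLC6A8 r = 0.93 (rho 0.94), each with a permutation p of 1e-05, the smallest that 100000 resamples can give. Leaving out the 2 pigs farthest from the median gave r = 0.95 in SLC7A7 and 0.91 in SLC6A8, and within litters r was 0.97 and 0.93. SLC38A6 followed with r = 0.65 and a pair of SLC3A2 with r = 0.61, adjusted permutation p = 0.00714 and 0.0169. After leaving out the 2 farthest pigs these fell to 0.48 and 0.40.

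Litter, which has 4 degrees of freedom where RFI has 1, accounted for a median of 21.8% of the variance of a member, beside 24.5% over all tested genes. The share is not corrected for degrees of freedom. With 5 litters of 4 pigs, a share of about the size of the members' median arises without any litter difference. At an unadjusted p under 0.05, 6 of 30 members differed between the 5 litters, which is 20% where 13.7% of all tested genes did. They were SLC7A8, SLC6A18, SLC1A2, SLC38A9, SLC7A2 and SLC38A8, the last of which lies outside the rule for named genes and was named after its values were seen. None passed adjustment (limma F test), where 0.0816% of all tested genes did. The lowest litter share was that of SLC3A2, at 1.52% (p = 0.994). SLC38A6 is not among the 6, with p = 0.421 at its highest-mean probeset. Its other probeset had p = 0.0171 (limma F test, adjusted p = 0.279).

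SLC7A8 lies on chromosome 7 from 75854700 to 75921931, and SLC7A7 on the same chromosome from 76195774 to 76235406. SLC7A8 had the smallest litter p of the members, 0.00449 (limma F test, adjusted p = 0.192), with 60.3% of its variance between litters. Its 4 pigs of sow 1410 lay between 6.43 and 6.90 with a mean of 6.69, and those of sow 1417 between 5.42 and 6.17 with a mean of 5.92, so these litters did not overlap. The litters of sows 1406, 1411 and 1435 had means of 6.45, 6.33 and 6.09. Within litters, low and high RFI pigs of SLC7A8 differed by 0.14 or less except in that of sow 1417, where the low RFI pigs were higher by 0.42. Without the litter of sow 1410 the litter p was 0.0556. SLC7A7, on the same chromosome, had a litter p of 0.461.

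SLC6A18, a sodium-driven carrier of neutral amino acids known mainly from the kidney, lies next to SLC6A19 on chromosome 16 from 79278126 to 79292463. Its litter means were 6.27 for sow 1435, 6.22 for 1417, 6.01 for 1406, 5.83 for 1410 and 5.69 for 1411 (p = 0.0113, adjusted p = 0.247, 55.1% of variance). All 4 pigs of sow 1435 were above all 4 of sow 1411, and the lowest value of the 20 pigs, 5.14, was the low RFI male of sow 1411. It was the only member apart from SLC7A8 that kept an unadjusted p under 0.05 without the litter of sow 1411. SLC6A19 had a litter p of 0.711, and SLC6A3, on the same stretch, 0.203.

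SLC38A9 was highest in the litter of sow 1411, with a mean of 7.17 and values of 6.77 to 7.63, and lowest in that of sow 1406, with a mean of 6.34 and values of 6.07 to 6.75 (p = 0.0288, adjusted p = 0.325). Its call was lost without high RFI replicate 2 (p = 0.0559) or 4 (p = 0.0739), without low RFI replicate 3 (p = 0.112) or 5 (p = 0.0528), and without the litter of sow 1406 (p = 0.0636) or 1411 (p = 0.3004). SLC1A2 was high in the litters of sows 1411, at 2.69, and 1406, at 2.63, against 2.23 to 2.30 in the other litters (p = 0.0160, adjusted p = 0.272). The female high RFI pig of sow 1406, at 2.04, did not share the high level of its litter. SLC1A2 kept its call without any single pig but not without the litter of sow 1411 (p = 0.0790).

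SLC7A2 was highest in the litter of sow 1417, with a mean of 3.88, and lowest in that of sow 1411, with 3.46 (p = 0.0374, adjusted p = 0.354). With the mean of its 2 probesets the litter p was 0.682, and with a trended eBayes it was 0.0595. The call of SLC7A2 was lost without high RFI replicate 3, 4, 5, 7 or 10 or low RFI replicate 4 or 7 (p from 0.0518 to 0.104) and without the litter of sow 1411 (p = 0.0805) or 1417 (p = 0.348). SLC38A8, a glutamine carrier known from the eye, had its lowest litter mean, 5.33, with sow 1406 and its highest, 5.76, with sow 1435 (p = 0.0496, adjusted p = 0.387). It held without low RFI replicate 2 and without high RFI replicates 3, 7 and 10, and was lost without any of the other 16 pigs (p from 0.0524 to 0.115) and without the litter of sow 1406 (p = 0.173), 1410 (p = 0.0652), 1411 (p = 0.0563) or 1435 (p = 0.151). It was also lost in 5 of 9 other settings: with trended (p = 0.0522) or robust eBayes (p = 0.0507), array weights (p = 0.0629), renewed quantile normalization (p = 0.0660) and centred arrays (p = 0.0517).

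**Figure D4:**
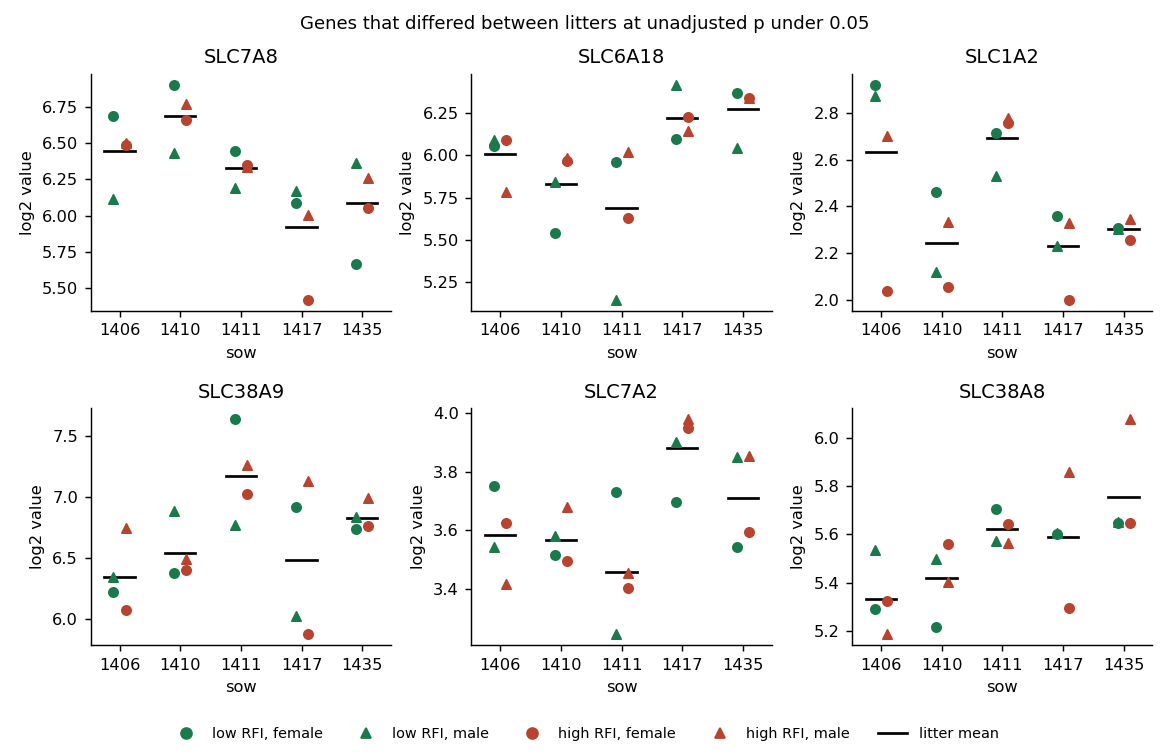
Log2 value (vertical axes) of the 6 members that differed between litters at an unadjusted p under 0.05, for the 4 pigs of each sow (horizontal axes), with the litter mean as a bar; green marks low RFI, red high RFI, circles females and triangles males. SLC7A8 is highest in the litter of sow 1410 and lowest in that of sow 1417, and SLC38A9 and SLC1A2 have their highest litter mean with sow 1411.

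Some cell type markers differed between litters at an unadjusted p under 0.05: 3 of 4 tested endothelial markers (PECAM1, VWF and CDH5), 2 of 3 fibroblast markers (COL1A1 and PDGFRA), 2 of 5 enteroendocrine markers (NTS and NEUROD1), 1 of 4 smooth muscle markers (DES), 1 of 7 enterocyte markers (FABP1) and 0 of 1 plasma cell markers. Goblet cell, neuron and glia, T cell and macrophage markers gave 1 such gene each, and crypt and B cell markers 0. The mean of FABP1, 1.90, lay close to the lower limit of the filter, 1.75. Of all tested genes 13.7% had such a p, and none of these markers passed adjustment (limma F test). The mean log2 value of the 6 fibroblast markers with values, 3 of them left out by the filter, was 6.30 in the litter of sow 1406 and 4.86 in those of sows 1417 and 1435, and no list mean was tested between litters. Their part in the litter differences of the members was not tested. The mean of the enterocyte markers lay between 9.72 in the litter of sow 1406 and 10.17 in that of sow 1435. Between the RFI groups 0 of 7 tested enterocyte markers passed the unadjusted threshold (limma), and their mean ran from 9.48 to 10.31 in low RFI and 9.64 to 10.27 in high RFI pigs. Beside the 3 lower members, ACTA2 of smooth muscle was lower (-0.62, p = 0.0254), and COL1A1 of fibroblasts (0.39, p = 0.0166) and neurotensin, NTS, of enteroendocrine cells (0.43, p = 0.0482) were higher in low RFI pigs. Each was the only one of its list to pass, 1 of 4 tested smooth muscle, 1 of 3 fibroblast and 1 of 5 enteroendocrine markers. Of all tested genes 3.86% passed in either direction, and none did after adjustment. The median fold changes of these lists, in that order, were -0.04, 0.36 and 0.21. The smooth muscle mean ran from 4.83 to 6.29 in low RFI and 5.002 to 6.32 in high RFI pigs, that of fibroblast markers from 4.58 to 6.83 in low RFI and 4.19 to 6.50 in high RFI pigs, and that of enteroendocrine markers from 5.95 to 6.93 in low RFI and 6.09 to 7.35 in high RFI pigs. Their part in the 3 calls was not tested.

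**Figure D5:**
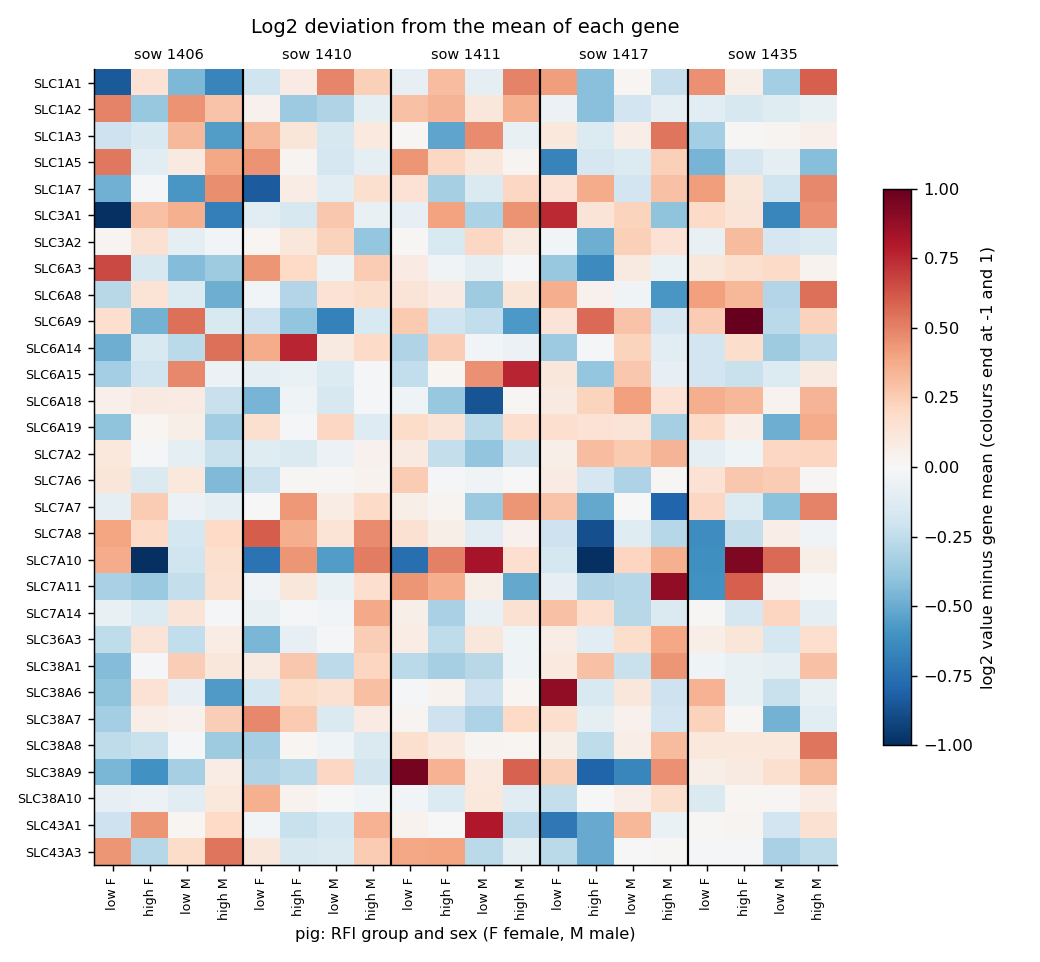
Log2 deviation of each pig from the mean of the gene (colour, ending at -1 and 1) for the 30 tested members (rows) in the 20 pigs (columns, ordered by sow, then by sex with the low RFI pig left of the high RFI pig). Deviations ran from -1.16 to 1.07, and 3 of them lay beyond 1 in size.

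Between the sexes, SLC6A15, a sodium-driven carrier of branched-chain amino acids and proline known from the brain, was the only member gene to pass the unadjusted threshold, 1 of 30, where 7.2% of all tested genes did. It averaged 1.78 ± 0.15 in females and 2.11 ± 0.31 in males (SD, n = 10 each), a difference of females minus males of -0.33 (standard error 0.11, limma p = 0.0081, adjusted p = 0.615). The females lay between 1.56 and 2.06, and the males between 1.81 and 2.71, close to the lower limit of the filter, a mean of 1.75. Its second probeset, left out for a low mean, averaged 1.63 ± 0.13 in females and 1.71 ± 0.26 in males. The X-linked creatine carrier SLC6A8 did not pass at its highest-mean probeset (0.18, p = 0.188) and passed at its second one (0.44, p = 0.0394), which was chosen after its values were seen.

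The fold change of RFI differed between the sexes in 2 members at an unadjusted p under 0.05, which is 6.67% of those tested where 5.69% of all tested genes did, and none passed adjustment (adjusted p = 0.784). In SLC38A9 the low RFI female was the higher one in 3 of 5 litters, most of all in that of sow 1417 with 6.91 against 5.87 in the high RFI female. The low RFI male was the lower one in 4 of 5 litters, again most in that of sow 1417 with 6.02 against 7.13 in the high RFI male. The fold change was 0.35 in females and -0.35 in males, and their difference was 0.70 (standard error 0.28, p = 0.0225). It was lost without low RFI replicate 3, 4, 7 or 8 or high RFI replicate 7 or 10 (p from 0.0512 to 0.0542). In SLC1A2 the fold change was 0.33 in females, where 4 of 5 litters had the higher value in the low RFI pig, and -0.09 in males, a difference of 0.42 (standard error 0.18, p = 0.0343). This call was lost without low RFI replicate 1, 4, 5 or 6 or high RFI replicate 2, 6, 7 or 10 (p from 0.0503 to 0.0785).

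The filter left out 5 of the 47 member probesets, 4 for a low mean and 1 for a wide SD, and with them 2 member genes altogether. SLC38A5, the SNAT5 carrier of glutamine, histidine and glycine on chromosome X, was left out for its spread in low RFI pigs, 3.36 to 6.39 with a median of 5.46, against 4.86 to 6.20 with a median of 5.44 in high RFI pigs. The low values belonged to 3 low RFI males, of sows 1410, 1411 and 1417, at 3.76, 3.69 and 3.36, which were singled out after their values were seen, while the low RFI males of sows 1406 and 1435 stood at 5.65 and 6.30. Without the filter its fold change was -0.34 (standard error 0.34, p = 0.325), at 0.25 in females and -0.94 in males, and the difference between the sexes was 1.19 (standard error 0.59, p = 0.0608). SLC38A11, a member of uncertain function, was left out for its low mean of 1.49. Its 2 highest pigs were the low RFI male of sow 1406 at 2.93 and the high RFI male of the same sow at 2.53.

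No correlation between a heavy chain and its light chains, or between a carrier and its partner, passed a permutation test. Of 8 partner pairs listed 5 had values, and Pearson's r over the 20 pigs was 0.01 for SLC3A2 with SLC7A6, 0.05 with SLC7A7, 0.18 with SLC7A8 and 0.16 with SLC7A11, and 0.04 for SLC6A19 with TMEM27, the collectrin that takes it to the membrane in the kidney. The permutation p was 0.439 or more, and 0.967 after adjustment over the 5 pairs. Spearman's rho lay between -0.10 and 0.03. Within litters r lay between -0.04 and 0.21. With the mean of the probesets of a gene, SLC3A2 and SLC7A11 reached r = 0.47 (permutation p = 0.0354, adjusted p = 0.177).

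Other genes of amino acid handling were read from 3 lists, against 3.86% of all tested genes called between the RFI groups, 13.7% between litters and 7.2% between the sexes. Of the carriers of amino acids or peptides outside these families 11 of 20 listed were tested and 0 were called between the RFI groups at an unadjusted p under 0.05 (limma), among them SLC15A1, the PEPT1 carrier that takes up di- and tripeptides, with a fold change of 0.03 (p = 0.882). Of the carrier partners and brush-border peptidases 6 of 11 were tested and 0 called. Of the genes of the amino acid response 14 of 22 were tested, and 1 was higher in low RFI pigs, SESN3, a sestrin that restrains mTORC1. It ran from 7.19 to 8.36 with a median of 7.75 in low RFI pigs, against 7.27 to 7.88 with a median of 7.48 in high RFI pigs, and was higher in 9 of 10 pairs (fold change 0.33, standard error 0.11, p = 0.00962, adjusted p = 0.9998). ASNS, the asparagine synthetase that rises when amino acids are short, gave -0.10 (p = 0.613). Between litters 3 of the 11 carriers (SLC17A8, SLC25A15 and SLC25A38), 2 of the 6 partners and peptidases (MME and DPEP1) and 5 of the 14 response genes (EIF2AK3, SESN3, CEBPG, DDIT4 and SHMT2) had an unadjusted p under 0.05, and none passed adjustment. Between the sexes 2 carriers, 1 partner and 0 response genes did. The median fold changes of these lists were 0.00 for the carriers, 0.02 for the partners and peptidases and 0.00 for the amino acid response.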

How the data were processed

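Ileum mucosa of 20 pigs, 10 of low and 10 of high RFI, was hybridised to 1 snowball array per pig. The deposited values are log2 expression values made by the authors. The authors reassigned the probes to probesets on Sscrofa11.1 with a custom layout, ran arrayQualityMetrics as a quality check and used the robust multichip average of the affy package. GCOS 1.1.1 is named in the submitters' processing notes. Labels and methods name different extraction kits. Rows outside the layout are empty (22753 of 47845).

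The filter of the study was applied: it left out 2956 probesets whose mean fell below the 5% quantile (1.75) or whose SD passed the 95% quantile of an RFI group (0.825 in low, 0.808 in high RFI). With R 4.3.3 and limma 3.58.1, lmFit and eBayes were fitted on all 20 arrays with RFI group and sow (14 residual and 4.42 prior degrees of freedom). Litter was tested by F over the sow terms, and sex and its interaction with RFI in fits that added these terms. P-values were adjusted by Benjamini-Hochberg over the 22136 probesets, and the unadjusted threshold was that of the study. The slaughter batch of the study's model is not in the labels and could not be fitted. Symbols came from the platform annotation (16361 of 25092 filled probesets had 1 symbol, 8731 none) and positions from RefSeq on Sscrofa11.1. A gene was read at its highest-mean probeset. The number of arrays limits the precision.

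Named genes were SLC38A1, SLC6A14, members called between RFI groups, the 5 of smallest litter p, members with a sex or interaction p under 0.01, members with a known role in intestinal uptake, correlation partners and members left out by the filter. Members of which only a probeset other than the highest-mean one passed were named as well. SLC1A3, SLC6A3, SLC6A9, SLC7A10, SLC38A10 and SLC43A1 were given with values though they lie outside this rule. Of these, SLC7A10 and SLC38A10 were singled out after their values were seen. Members and lists were chosen with earlier results of these data known.

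Pairing came from the labels, which give sow and sex. The consensus correlation was -0.00195 for pigs of the same litter and sex, beside the sow, and 0.0514 for pigs of a sow. The alternatives dropped the sow, added sex, took the pair as a block or the sow as a random block, skipped the filter or its SD part, used a trended or robust eBayes or array weights, normalized by quantiles again, centred the arrays, averaged the probesets of a gene, or left out each pig or litter. Permutations were run in R, and figures were drawn with Python 3.11.15, numpy 2.4.6, pandas 2.3.3 and matplotlib 3.10.9. The scripts were tested on simulated data.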

Additional observations from a re-analysis of the deposited data

Results flagged for a closer look

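Of 70 groups of pigs examined, each RFI group for a named member and each litter for the members that differed between litters, 4 held a pig that stood apart from its group, where chance alone gives about 1 in 20. In SLC6A15 the high RFI male of sow 1411 stood at 2.71, with the other high RFI pigs between 1.56 and 2.04. In SLC38A8 the high RFI male of sow 1435 stood at 6.08, with its litter mates at 5.65. In SLC6A18 the high RFI male of sow 1406 stood at 5.78, with its litter mates between 6.06 and 6.09, and the low RFI male of sow 1435 at 6.04, with its litter mates between 6.34 and 6.37.

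The fold change of RFI differed between females and males by 0.70 in SLC38A9 (limma interaction p = 0.0225) and by 0.42 in SLC1A2 (p = 0.0343). Neither passed adjustment over all probesets.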

How the results depend on the processing

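With the litter-by-sex pair as replicate block the same 3 members were called between low and high RFI, and no fold change of a named member changed sign. Litter, sex and interaction were not tested with this block. Across the other settings that kept all pigs 2 or 3 were called, and 5 to 8 between litters. Leaving out 1 pig or litter gave 1 to 4 members for RFI (1 without low RFI replicate 5 or 6 or the litter of sow 1406 or 1410) and 2 to 7 for litter (3 without high RFI replicate 4, 2 without the litter of sow 1411). For sex and for the interaction of RFI and sex only single pigs were left out, not litters. This gave 1 to 3 members for sex (3 without high RFI replicate 2, 2 without high RFI replicate 4 or 9 or low RFI replicate 2 or 5). For the interaction it gave 0 to 3 (0 without low RFI replicate 4 or high RFI replicate 7 or 10, 1 without low RFI replicate 3, 6 or 8 or high RFI replicate 2 or 6). The alternatives for sex and interaction were chosen after seeing the data. Of all probesets called between the RFI groups 64.3% were lower in low RFI, against 55.8% after renewed quantile normalization and 57% after centring.

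Fold changes near 0 changed sign. With array weights SLC1A5 gave -0.00593, SLC38A9 0.0209 and SLC6A19 0.0174, with quantile normalization SLC7A2 0.0154, with centred arrays SLC38A9 0.00656 and SLC7A2 0.00025, and with the mean of probesets SLC3A2 -0.0325. Leaving out pigs or litters gave -0.0379 to 0.13 for SLC1A5, -0.0909 to 0.0888 for SLC38A9, -0.29 to 0.0213 for SLC3A1, -0.0669 to 0.11 for SLC6A15, -0.0807 to 0.0743 for SLC6A19, -0.049 to 0.0291 for SLC7A2, -0.274 to 0.0211 for SLC7A7 and -0.0757 to 0.0839 for SLC7A8. The r of SLC3A2 was -0.142 with SLC7A6, -0.155 with SLC7A7 and -0.013 with SLC7A8 without the 2 farthest pigs, and -0.00765 with SLC7A6 for the mean of probesets. That of SLC6A19 with TMEM27 was -0.0389 within litters. The cause was not tested.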
